A study of Mus musculus with 3 samples.

Results

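The cells described here are wound macrophages in which the surface receptor gene *Slamf7* and the cytokine gene *Il10* together gave at least 2 unique molecular identifiers (UMIs, 1 per captured transcript). They were 1467 of 6724 gated macrophages in the Day 7 and Day 14 libraries, 668 of 4591 on Day 7 and 799 of 2133 on Day 14, out of 39535 barcodes in both libraries and 44693 in the series. The gate required 1000 or more UMIs per barcode, of which mitochondrial transcripts made up no more than 10%. It asked that *Lyz2*, *C1qa*, *C1qb*, *C1qc*, *Cd68*, *Adgre1*, *Fcgr1*, *Csf1r* and *Ms4a7* hold at least 0.8% of UMIs, that *Dcn* and *Col1a2* hold under 0.5% and that *S100a8* and *S100a9* hold under 1%. Cells with more than 2 *Arg1* UMIs, or with 3 or more UMIs of the resident-like genes *Lyve1*, *Cd163* and *Cbr2*, were left out. The same gate with no *Slamf7* or *Il10* UMI gave the reference macrophages, 3055 cells on Day 7 and 838 on Day 14, and cells with exactly 1 such UMI, 868 and 496, stood between. Cells with 2 or more are called *Slamf7*/*Il10* macrophages below. Because *Slamf7* and *Il10* chose them, the levels of these genes, of the 17 other genes of the gate and of any gene between the groups are descriptions without a test.

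The libraries came from full-thickness punch wounds in the back skin of male C57BL/6J mice of 7 to 12 weeks. Each day after injury, Day 3, Day 7 or Day 14, was 1 library of unsorted cells dissociated from tissue pooled from 4 samples. Transcripts were read from their 3' ends on the droplet-based Chromium platform. With 1 library a day, a difference between days cannot be told apart from a difference between libraries or pools, and intervals given here cover counting error only. In total 120940799 UMIs were counted over 22924 barcodes for Day 7, and 112713257 over 16611 for Day 14. They shared 111 barcode sequences, of which 0 marked a *Slamf7*/*Il10* macrophage in both.

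Macrophages clear pathogens and dead cells from a wound and then turn to repair. IL-10, the product of *Il10*, is a secreted cytokine that restrains inflammatory gene expression through its receptor and STAT3. SLAMF7 is a receptor of the signaling lymphocytic activation molecule (SLAM) family that binds to itself on neighbouring cells and is found on macrophages, natural killer cells and plasma cells. C1q, encoded by *C1qa*, *C1qb* and *C1qc*, starts the classical complement cascade and coats dying cells. *Gdf15* encodes a stress-induced cytokine, *Cd83* an immunoglobulin-family glycoprotein of activated antigen-presenting cells, and *Ccl8* a chemokine.

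In the GRCm38 annotation, *Il10* (ENSMUSG00000016529) lies at chr1:131019845-131024974 on the plus strand and *Slamf7* (ENSMUSG00000038179) at chr1:171632403-171653035 on the minus strand. Most of the chosen cells rested on *Slamf7*. It was seen in 521 of the 668 cells on Day 7 (78.0%) and 712 of the 799 on Day 14 (89.1%), with a median of 2 UMIs and a maximum of 12 and 18. *Il10* was seen in 338 (50.6%) and 295 (36.9%), with a median of 1 and 0 and a maximum of 11 and 23. The threshold cut through a continuous count: 317 of the Day 7 cells (47.5%) and 272 of the Day 14 cells (34.0%) held exactly 2 UMIs. Just inside it, *Gdf15* stood at 413 CPM (a gene's UMIs per 1000000 UMIs, summed over the cells of a group) on Day 7, and just outside, in cells with 1 UMI, at 355 CPM. On Day 14 these *Gdf15* values were 488 and 389.9 CPM.

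The *Slamf7*/*Il10* macrophages made up 14.6% of gated macrophages on Day 7 (95% exact binomial interval 13.5 to 15.6) and 37.5% on Day 14 (35.4 to 39.6). Depth moved with this share. The median depth of the chosen cells was 3441.5 UMIs on Day 7 and 4110 on Day 14, and that of the reference 2620 and 3277.5. Within cells of 2000 to under 4000 UMIs the share was 13.3% on Day 7 and 34.4% on Day 14, and within 4000 to under 8000 UMIs it was 23.7% and 48.7%. The share in the Day 14 library was thus the higher at matched depth. Above 8000 UMIs, at 36.1% of 61 and 40.7% of 118 cells, the shares lay closer and their counting intervals overlapped. These intervals do not cover differences between libraries of a day. When each gated cell was thinned to 1000 UMIs, 16.3% on Day 7 (15.3 to 17.4) and 30.8% on Day 14 (28.9 to 32.9) kept a *Slamf7* or *Il10* UMI.

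Between the libraries *Slamf7* differed more than *Il10*. Thinned cells with a *Slamf7* UMI were 10.8% on Day 7 (9.92 to 11.7) and 25.2% on Day 14 (23.3 to 27.1). Those with an *Il10* UMI were 6.19% (5.51 to 6.92) and 7.69% (6.59 to 8.90). Fibroblasts, which should lack both transcripts, gave a background in which free RNA and doublets were not told apart. The doublet score marked 19.1% of these fibroblasts on Day 7 and 18.1% on Day 14. After thinning, 0.310% of 6452 fibroblasts on Day 7 and 0.331% of 7254 on Day 14 had a UMI of either gene. Unthinned, at medians of 10433 and 10342 UMIs, 4.09% and 2.95% did. The unthinned shares of gated macrophages were 33.5% and 60.7%, at medians of 2823 and 3691 UMIs, above these backgrounds at a lower depth. Resident-like macrophages, the cells left out for *Lyve1*, *Cd163* and *Cbr2*, had *Il10* in 12.6% and 14.9% of thinned cells and *Slamf7* in 6.04% and 18.8%.

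**Figure D1:**
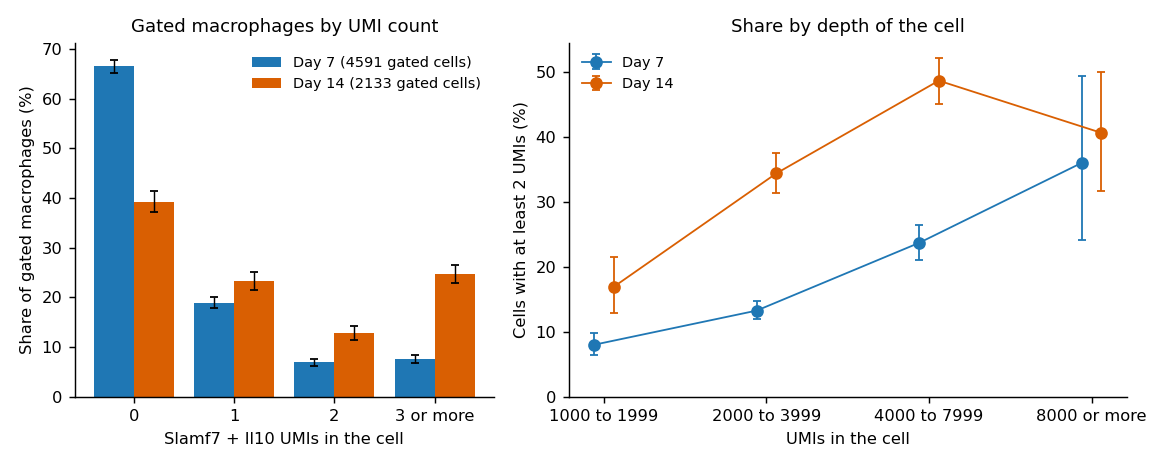
Left, the share of gated macrophages (y axis, percent) by the number of *Slamf7* plus *Il10* UMIs in the cell (x axis), with bars for Day 7 and Day 14 and 95% exact binomial intervals. Right, the share of gated cells with at least 2 such UMIs (y axis, percent) against the UMIs of the cell (x axis, 4 classes), where the Day 14 points lie above the Day 7 points and the intervals overlap only in the deepest class.

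A label that calls these cells high in C1q held only in part. On Day 7 *C1qa* was 2658 CPM in the *Slamf7*/*Il10* macrophages and 2531 CPM in the reference (log2 ratio 0.071, 0.032 to 0.11, the range being the 95% counting interval as for each range after a ratio below), and on Day 14 it was 3845 and 2338 CPM (0.72, 0.68 to 0.76). Per cell, the 3 C1q genes held a median of 0.639% of UMIs against 0.587% on Day 7, and of 1.07% against 0.744% on Day 14. The lower quartile of the Day 14 reference was 0.102%, so that reference contained many cells with almost no C1q. Cells under 0.3% C1q were 22.8% of the reference on Day 7 and 31.0% on Day 14, against 11.4% and 7.13% of the *Slamf7*/*Il10* macrophages. Among cells with at least 0.3%, *C1qa* stood at 2988 and 3139 CPM on Day 7 and 4222 and 3891 CPM on Day 14. On Day 14 the groups thus differed in how many cells held little C1q, and *C1qa* levels among the others lay closer than in all cells. A limit on C1q can itself bring such levels together, and the C1q genes are in the gate, so these values are descriptions. The limit of 0.3% was set after seeing this distribution, and values above it are given beside the genes and lists described below.

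The other marker genes split. *Ccl8* was 679.6 and 614 CPM on Day 7 (log2 ratio 0.15, 0.067 to 0.22) and 1855 and 1604 CPM on Day 14 (0.21, 0.16 to 0.26), and resident-like macrophages held more, 3260.4 and 6881 CPM. Its Day 14 ratio in cells with at least 0.3% C1q was -0.40. Within cells of 2000 to under 4000 UMIs *Ccl8* was 1050 against 723 CPM on Day 7 and 2987 against 2385 CPM on Day 14. Over all settings its log2 ratio ran from 0.039 to 0.45 on Day 7 and from -0.40 to 0.32 on Day 14. *Ccl8* therefore did not set the chosen cells apart from resident-like macrophages, and its ratio to the reference depended on depth and setting. *Gdf15* and *Cd83* were higher than in the reference on both days, as described below. In resident-like macrophages *Gdf15* stood at 353 and 699.6 CPM, against 454 and 582 CPM in the chosen cells, and *Cd83* at 474 and 749.8 against 623 and 779 CPM. After thinning, a *Cd83* UMI was seen in 41.9% of the chosen and 30.1% of the resident-like cells on Day 7 and in 48.1% and 49.5% on Day 14, so neither gene set the chosen cells apart from resident-like macrophages on Day 14. The cells are called by their rule for these reasons and not by the label.

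**Figure D2:**
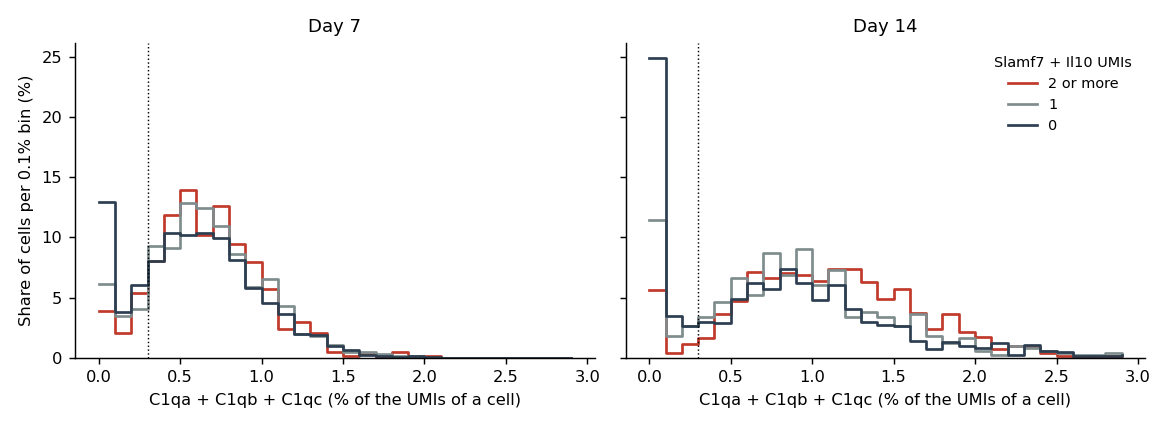
Share of cells (y axis, percent per bin of 0.1 percentage points) against the part of a cell's UMIs that came from *C1qa*, *C1qb* and *C1qc* (x axis, percent; values above 3 are in the last bin), for gated macrophages with 2 or more, 1 or 0 *Slamf7* plus *Il10* UMIs. The dotted line is 0.3%, and the peak near 0 on Day 14 is mostly of cells with 0 such UMIs.

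Compared with the reference, few genes differed strongly. Of 5114 genes with a mean of at least 20 CPM outside the rule, 23 were at least 2-fold higher in the *Slamf7*/*Il10* macrophages on Day 7 (0.45%) and 18 on Day 14 (0.352%), and 13 (0.254%) and 37 (0.724%) were at least 2-fold lower. The median log2 ratio of all counted genes was -0.014 on both days. Since the chosen cells were deeper, a second reference was weighted to their UMI depth, and against it 24 (0.469%) and 34 (0.665%) genes were 2-fold higher and 12 (0.235%) and 45 (0.88%) 2-fold lower. On both days and against both references, 45 genes were at least 1.5-fold higher (0.88%) and 16 at least 1.5-fold lower (0.313%), a size chosen after seeing the data, and 4 (0.0782%) and 7 (0.137%) reached 2-fold. The simulated-doublet score marked 27.7% of the chosen cells and 14.1% of the reference on Day 7, and 7.38% and 5.73% on Day 14. Without marked cells, 35 of the 45 genes and 13 of the 16 were still past 1.5-fold on both days. Among cells with at least 0.3% C1q, 42 of the 45 were past it on Day 7 but 14 on Day 14, and 10 and 6 of the 16. All 45 kept their direction there, and 5 of the 16 had the opposite sign on Day 14. These genes were chosen in all gated cells, of which each setting keeps a part, so most were bound to keep their direction. No share of all counted genes is given for either setting, and these counts are descriptions.

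The 14 genes named as higher on both days included 3 with known roles in inflammation or immune checkpoints. *Nlrp3*, the sensor of the inflammasome that matures IL-1β, was 233 against 113 CPM on Day 7 (log2 ratio 1.04, 0.90 to 1.19) and 399 against 176 CPM on Day 14 (1.18, 1.04 to 1.32). It was seen in 38.2% and 54.1% of the chosen cells, against 19.7% and 28.2% of the reference, and after thinning in 17.8% against 9.72% and in 26.9% against 13.5%. Among cells with at least 0.3% C1q its log2 ratio was 1.28 and 0.87, so it was higher there on both days too. Fibroblasts held 9.58 and 2.13 CPM of *Nlrp3*. *Cd274*, which encodes the checkpoint ligand PD-L1, was 57.0 against 28.6 CPM on Day 7 (log2 ratio 1.00, 0.69 to 1.30) and 55.9 against 28.6 CPM on Day 14 (0.97, 0.60 to 1.34). *Dusp2*, a nuclear phosphatase of MAP kinases, was 104 against 53.5 CPM on Day 7 (log2 ratio 0.95, 0.73 to 1.17) and 103 against 58.8 CPM on Day 14 (0.81, 0.56 to 1.08). Both stayed above the reference with at least 0.3% C1q, at 1.02 and 0.52 for *Cd274* and at 0.95 and 0.54 for *Dusp2*, with smaller Day 14 values.

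The stress cytokine and activation genes of the marker list followed the same direction. *Gdf15* was 454 against 188 CPM on Day 7 (log2 ratio 1.27, 1.16 to 1.38) and 582 against 316 CPM on Day 14 (0.88, 0.77 to 0.99), and was seen in 52.7% and 52.8% of the chosen cells. *Cd83* was 623 against 313 CPM on Day 7 (log2 ratio 0.99, 0.90 to 1.08) and 779 against 456 CPM on Day 14 (0.77, 0.68 to 0.86), and was seen in 71.9% and 86.4%. On Day 14 *Gdf15* was low in reference cells of little C1q: the reference held 30.4 CPM of *Gdf15* under 0.3% C1q and 513 CPM above it. Above that limit the log2 ratio was 0.29. On Day 7 the restricted ratio of *Gdf15* was 1.21. For *Cd83* the restricted ratios were 0.99 and 0.54.

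A further 6 of the 14 genes named as higher had a range of roles. *Arl5c*, an ARF-like small GTPase, was 86.3 against 36.5 CPM on Day 7 (log2 ratio 1.24, 0.99 to 1.49) and 104 against 48.9 CPM on Day 14 (1.09, 0.82 to 1.37), and kept 1.41 and 1.38 with at least 0.3% C1q. *Slc25a33*, a mitochondrial pyrimidine nucleotide carrier, was 28.1 against 13.3 CPM on Day 7 (log2 ratio 1.08, 0.64 to 1.52) and 58.1 against 21.9 CPM on Day 14 (1.40, 1.01 to 1.82). The zinc finger gene *Zfp667* was 25.3 against 10.6 CPM on Day 7 (log2 ratio 1.26, 0.78 to 1.73) and 42.3 against 21.9 CPM on Day 14 (0.95, 0.53 to 1.38). Among cells with at least 0.3% C1q the log2 ratios were 1.25 and 1.16 for *Slc25a33* and 1.24 and 0.88 for *Zfp667*. These 3 genes were low but spread over many cells: *Arl5c* was seen in 22.3% and 26.3% of the chosen cells, *Slc25a33* in 8.83% and 19%, and *Zfp667* in 8.38% and 15.6%. *Rcan1*, an inhibitor of calcineurin, *Ralgds*, an activator of Ral GTPases, and the zinc finger gene *Plagl2* had log2 ratios of 0.93, 0.95 and 0.75 on Day 7 and 0.85, 0.84 and 0.83 on Day 14. With at least 0.3% C1q the values of these last 3 genes were 0.92, 0.94 and 0.74 on Day 7 and 0.34, 0.47 and 0.43 on Day 14.

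The gene at the top of the ranking was carried by few cells. *Mfge8*, which encodes a protein that bridges dying cells to phagocytes, was 64.5 against 18.4 CPM on Day 7 (log2 ratio 1.81, 1.49 to 2.13) and 25.7 against 8.26 CPM on Day 14 (1.64, 1.00 to 2.32), the highest ratio by the rule for named genes. It was seen in only 36 of the 668 cells on Day 7, where 1 cell held 77 of 163 UMIs and the top 10 cells 84.0%. On Day 14 it was seen in 44 cells, with 63.4% of its 93 UMIs in the top 10, and after thinning it was seen in 1.95% of the chosen cells and 1.54% of the reference on Day 7, and in 2.13% and 0.835% on Day 14. Fibroblasts held 109.7 and 78.3 CPM, more than either macrophage group. The restricted log2 ratios of *Mfge8* were 1.71 (1.32 to 2.09) and 1.37 (0.66 to 2.15), and on Day 7 its ratio was 2.52 without marked doublets and 0.69 in cells with at least 3 *Slamf7* plus *Il10* UMIs. *Cadm1*, an adhesion gene that is also a marker of type 1 conventional dendritic cells, was 17.4 against 8.37 CPM on Day 7 (log2 ratio 1.06, 0.49 to 1.61) and 41.2 against 13.3 CPM on Day 14 (1.63, 1.12 to 2.16) and was seen in 5.09% and 11.9% of the chosen cells, with restricted ratios of 0.97 and 1.18. *Ccl7*, a chemokine for monocytes, was 596 against 331 CPM on Day 7 (log2 ratio 0.85, 0.76 to 0.94) and 1347 against 667 CPM on Day 14 (1.01, 0.94 to 1.09). Its restricted log2 ratio was 0.80 (0.71 to 0.90) on Day 7 and 0.47 (0.40 to 0.55) on Day 14, the latter under 1.5-fold. Resident-like macrophages held more *Ccl7*, 1207 and 3305 CPM. Among the chosen cells, the 330 on Day 7 with at least 2 *Slamf7* and no *Il10* UMIs held 318 CPM, not above the reference. The 147 with at least 2 *Il10* and no *Slamf7* UMIs held 1404 CPM. On Day 14 these kinds of cells held 1063 and 1528 CPM, both above the reference. Of the 14 genes named as higher, 12 were above the resident-like level in the chosen cells on Day 7 and 9 on Day 14. Of the 10 named as lower, 8 were below it on Day 7 and 3 on Day 14. The share of all counted genes above or below that level is not given. These counts are therefore not read as a result about the named genes. Fibroblasts held 1167 and 2057 CPM of *Ccl7*, and the part of free RNA in its values was not tested.

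*Plac8*, *Vcan* and *Fn1*, 3 genes of the monocyte list below, were among those named as lower. *Plac8*, a gene of circulating monocytes, was 79.2 against 265 CPM on Day 7 (log2 ratio -1.74, -1.96 to -1.54) and 48.7 against 258 CPM on Day 14 (-2.41, -2.65 to -2.17). *Vcan*, which encodes the matrix proteoglycan versican, was 21.0 against 83.4 CPM on Day 7 (log2 ratio -1.99, -2.42 to -1.59) and 14.9 against 44.2 CPM on Day 14 (-1.57, -2.05 to -1.10). *Fn1*, fibronectin, was 351 against 729 CPM on Day 7 (log2 ratio -1.05, -1.16 to -0.95) and 334 against 1009 CPM on Day 14 (-1.60, -1.69 to -1.50). Within the reference these transcripts were higher in the cells with little C1q. On Day 14 *Plac8* was 589 CPM in reference cells under 0.3% C1q and 30.6 CPM in the others. *Fn1* was 2033 and 305 CPM in the same classes of reference cells on Day 14, and 1389.7 and 541 CPM on Day 7, when 2764 of its UMIs lay under 0.3% C1q and 3771 above. Leaving out cells under 0.3% C1q, the log2 ratios on Day 7 and Day 14 were -0.87 (-1.14 to -0.62) and 0.34 (-0.12 to 0.82) for *Plac8*, -1.01 (-1.52 to -0.54) and -0.41 (-1.12 to 0.31) for *Vcan*, and -0.92 (-1.04 to -0.80) and -0.60 (-0.77 to -0.44) for *Fn1*. On Day 14 the intervals of *Plac8* and *Vcan* then took in 0, and that of *Fn1* did not. Resident-like macrophages held 284 and 76.3 CPM of *Fn1*, less than the chosen cells on both days. After thinning, a *Plac8* UMI was seen in 37.6% of fibroblasts, 13.8% of the reference and 5.99% of the chosen cells on Day 7. For *Fn1* these shares were 78.3%, 32.9% and 20.7%. On Day 14 they were 23.6%, 10.9% and 3.13% for *Plac8* and 67.1%, 29.1% and 14.6% for *Fn1*. The part of free RNA in these differences was not tested.

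*Retnla*, the alternative-activation gene for RELMα, showed the largest Day 14 level among the lower genes. It was 241 against 442 CPM on Day 7 (log2 ratio -0.88, -1.0 to -0.75) and 1531 against 5649.8 CPM on Day 14 (-1.88, -1.93 to -1.84). Its Day 7 ratio depended on the setting, with -2.43 without marked doublets and -1.49 against the depth-weighted reference. On Day 7 its UMIs were held by few cells, 95.4% of them in the chosen cells by 10, and it was seen in 4.94% of the chosen cells and 4.91% of the reference. On Day 14 it was seen in 15.8% and 30.2%. *Ear2*, an eosinophil-associated ribonuclease gene, was 33.6 against 70.7 CPM on Day 7 (log2 ratio -1.07, -1.42 to -0.74) and 213 against 548 CPM on Day 14 (-1.36, -1.49 to -1.24). On Day 7 *Ear2* was seen in 4.49% of the chosen cells and 4.48% of the reference, with 74.1% of its UMIs in the top 10 of the chosen cells, so that the Day 7 level of both genes in the chosen cells rested on a few of them. Among cells with at least 0.3% C1q the log2 ratios were -0.88 (-1.03 to -0.74) and -1.26 (-1.31 to -1.20) for *Retnla* and -1.26 (-1.74 to -0.80) and -1.01 (-1.20 to -0.82) for *Ear2*. *Ifitm6* had log2 ratios of -1.57 and -2.04, and -0.58 and -0.96 with at least 0.3% C1q. The tubulin gene *Tuba1a* had -0.81 and -0.70, and -0.76 and -0.29 in the restricted cells. *Wnt11*, *Glipr2* and *Pilra* were lower in all cells on Day 14, at -1.08, -1.34 and -1.07, and had 0.28 (-0.37 to 0.95), 0.18 (-0.65 to 1.06) and 0.38 (-0.22 to 1.01) in the restricted cells, where each interval took in 0. *Wnt11* had only 8 UMIs in the chosen cells on Day 7.

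**Figure D3:**
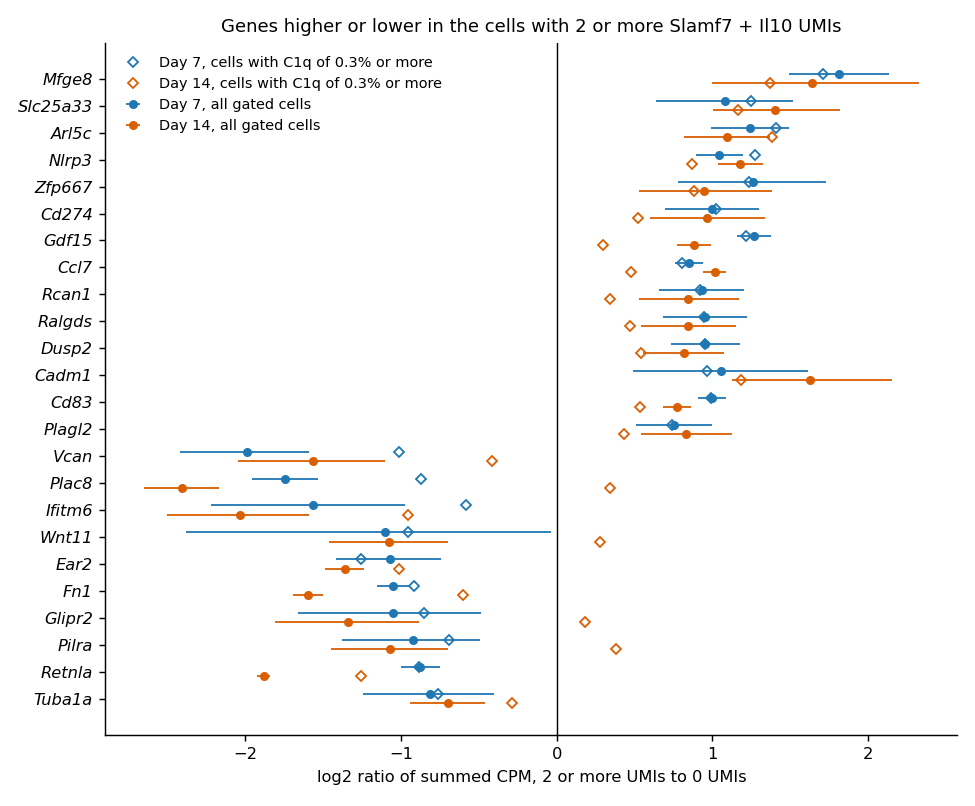
Log2 ratio of summed CPM (x axis) between gated macrophages with 2 or more and with 0 *Slamf7* plus *Il10* UMIs, for the 14 genes with the highest and the 10 with the lowest ratio by rule (y axis), on Day 7 and Day 14. Filled points have 95% counting intervals and open diamonds are the same ratio among cells with at least 0.3% C1q, where the Day 14 diamonds of *Plac8*, *Wnt11*, *Glipr2* and *Pilra* lie above 0.

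For several genes, levels followed the number of *Slamf7* plus *Il10* UMIs in steps. On Day 14 *Nlrp3* stood at 176, 239, 249.7 and 465 CPM in cells with 0, 1, 2 and 3 or more UMIs, and on Day 7 at 113, 151, 190.5 and 269 CPM. *Cd83* stood at 313, 479, 497 and 728 CPM on Day 7. *Plac8* went the other way, from 265 through 135 and 89.6 to 70.5 CPM on Day 7. Cells just outside the rule thus lay between the reference and the chosen cells for these genes, and no break appeared at 2 UMIs. *Cadm1* did not follow this on Day 7, with 17.3 CPM at 1 UMI and 13.9 CPM at 2. Nor did *Mfge8*, whose Day 7 log2 ratio to the reference was 1.81 with at least 2 UMIs and 0.69 with at least 3. *C1qa* was flat on Day 7, from 2531 to 2692 CPM, and stepped up on Day 14, from 2338 to 3919 CPM. Depth rose with the count too, with Day 7 medians of 2620, 3098.5, 3344 and 3510 UMIs. In depth classes from 1000, 2000, 4000 and 8000 UMIs, *Plac8* was 379, 311, 146 and 42.0 CPM in the Day 7 reference. In the chosen cells it was 28.0, 88.8, 84.1 and 41.8 CPM. The part of depth in the steps was not tested.

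**Figure D4:**
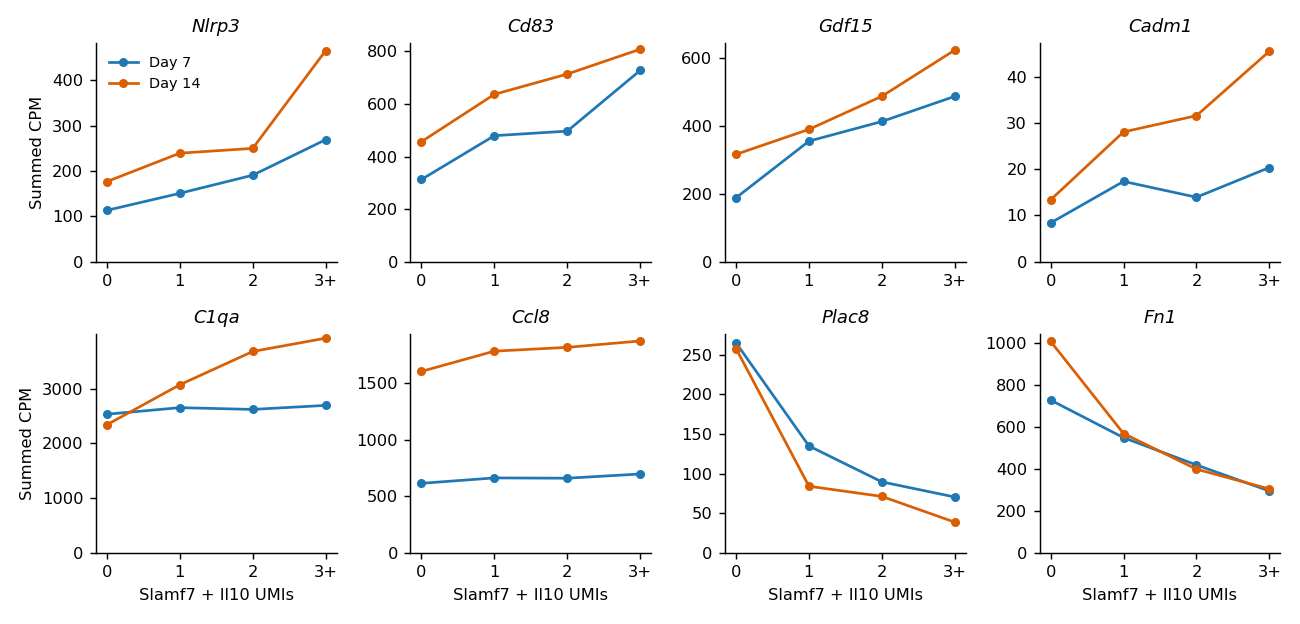
Summed CPM (y axis, from 0) of 8 genes in gated macrophages with 0, 1, 2 or 3 and more *Slamf7* plus *Il10* UMIs (x axis), for Day 7 and Day 14. *Nlrp3*, *Cd83* and *Gdf15* climb with the count, *Plac8* and *Fn1* decline, and *Ccl8* stays nearly level on each day.

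The functional gene lists were read against the share of all counted genes past 1.5-fold. In all gated cells this was 3.29% higher and 1.23% lower on Day 7, and 3.6% higher and 3.27% lower on Day 14. No such share is given for cells with at least 0.3% C1q. List counts in those cells therefore have no background beside them and are descriptions only. The share of all counted genes above the reference at any size is not given either. Counts of list genes above the reference are thus descriptions too, to be set beside the median log2 ratio of all counted genes, -0.014 on both days. The lists were chosen with results of these data known, so a list's count describes it without a test, and between 3 of 10 genes (cell cycle) and all of a list's genes passed the filter of 20 CPM. Chemokine genes were among the higher lists on Day 7: 3 of 9 counted CC chemokines and 3 of 6 CXC chemokines were at least 1.5-fold higher, with medians of 0.33 and 0.57 on the log2 scale. *Cxcl2*, a neutrophil attractant, was 3552 and 1913 CPM on Day 7 (0.89, 0.86 to 0.93) and 7039 and 4913 CPM on Day 14 (0.52, 0.49 to 0.55). Fibroblasts also held *Cxcl2*, 1518 and 1939.6 CPM. Resident-like macrophages likewise stood above the reference for *Ccl2*, at 782 and 1697 against 227 and 442 CPM. For *Ccl6* they held 2848 against 1207 CPM on Day 7, and 1305 against 2153 CPM on Day 14. The lists as a whole were not compared with resident-like macrophages. *Cxcl16*, the ligand of CXCR6, had log2 ratios of 0.47 and 1.22, and 0.38 and 0.69 with at least 0.3% C1q. On Day 14, 3 of 9 CC and 2 of 6 CXC chemokines were past 1.5-fold, and the chemokine *Ccl6* was lower at -0.87. With at least 0.3% C1q, the CC median on Day 14 was -0.19, with 0 of 9 past 1.5-fold higher and 1 lower, and 2 of 6 CXC chemokines were still higher.

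Of 15 counted genes of inflammatory cytokines and feedback of NF-κB, a transcription factor of inflammation, 5 were at least 1.5-fold higher on Day 7 and 0 lower, with a median of 0.38. On Day 14, 1, *Nlrp3*, was higher and 1, *Il6*, lower, with a median of 0.38. *Tnfaip3*, the feedback inhibitor A20, had 0.76 and 0.51, and *Nfkbia*, the inhibitor IκBα, 0.70 and 0.37. *Tnf* had 0.89 and 0.58 at 64.9 and 82.9 CPM. *Il1b* was 1047 and 710.1 CPM on Day 14 (0.56, 0.48 to 0.64), and its log2 ratio with at least 0.3% C1q was 1.39. For the 3 genes before it the Day 14 values were smaller in these restricted cells, 0.14 for *Tnf*, 0.10 for *Nfkbia* and 0.36 for *Tnfaip3*, and the list median was 0.14, with 5 of 15 genes past 1.5-fold higher and 1 lower. On Day 7 the restricted median was 0.44. In all cells 13 of the 15 lay above the reference on Day 7 and 11 on Day 14.

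Of 12 counted genes of the IL-10 receptor and response, 4 were at least 1.5-fold higher on Day 7 and 0 on Day 14, in all cells as with at least 0.3% C1q. In all cells 10 lay above the reference on each day, with medians of 0.17 and 0.19. *Il10ra*, the ligand-binding chain, was 131 and 119 CPM on Day 7 and 123 and 100.4 CPM on Day 14. *Socs3*, a target of STAT3, had log2 ratios of 0.35 and 0.29, and *Bcl3* 0.59 and 0.21. Among 12 transcription factors known to regulate *Il10*, 3 were past 1.5-fold higher on Day 7, and 1 higher and 1 lower on Day 14. In cells with at least 0.3% C1q these counts were 3 on Day 7, and 0 higher and 2 lower on Day 14. *Rel*, an NF-κB subunit, had 0.85 and 0.38, and *Crem* 0.71 and 0.31. *Maf*, the best known of these factors in macrophages, was 1028 and 1234 CPM on Day 7 and 386 and 414 CPM on Day 14, not above the reference on either day. Of 5 counted SLAM receptors and adaptors 2 were past 1.5-fold higher on Day 7 and 0 on Day 14, also with at least 0.3% C1q. They were *Slamf8*, with 0.78 and 0.11, and *Slamf9*, with 0.82 and -0.33, while *Cd84* had 0.055 and 0.046.

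Of the antigen presentation list, all 11 counted genes were above the reference on Day 7 and 8 on Day 14, and 2, *Cd83* and *Cd274*, were past 1.5-fold on each day, with medians of 0.40 and 0.33. *H2-Aa*, an MHC class II chain, was 3254 and 2201 CPM on Day 7 (0.56, 0.53 to 0.60) and 10825 and 8095 CPM on Day 14 (0.42, 0.40 to 0.44). *H2-Eb1* had 0.53 and 0.50, and with at least 0.3% C1q 0.60 and 0.58, and 5 of the 11 were then past 1.5-fold on Day 7 and 0 on Day 14, at medians of 0.48 and 0.50. The costimulatory gene *Cd86* had 0.19 and 0.56.

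More genes of dead-cell uptake were past 1.5-fold on Day 14 than on Day 7. Of 12 counted genes for uptake of apoptotic cells 1 was past 1.5-fold higher and 1 lower on Day 7, and 6 were higher on Day 14, with medians of 0.18 and 0.55. *Axl*, a receptor for the bridging protein GAS6, had 0.57 and 0.67, and *Trem2*, a lipid-sensing receptor, 0.29 and 0.76. Of 12 lipid-associated macrophage genes 3 were past it on Day 7, and 5 higher and 1 lower on Day 14. Of these 12, 11 lay above the reference on Day 7 and 10 on Day 14, with medians of 0.40 and 0.53. *Apoe* was 15558 and 9899 CPM on Day 14 (0.65, 0.63 to 0.67) and level on Day 7 (0.032). *Gpnmb* had 1.10 and 0.55. These Day 14 differences were smaller in cells with at least 0.3% C1q, where the medians were 0.16 and 0.11. In each list 1 gene was then past 1.5-fold higher and 1 lower, and *Apoe* had 0.068. Of 9 counted complement genes outside the rule, 1 was past 1.5-fold higher on Day 7, and 3 were higher and 1 lower on Day 14. With at least 0.3% C1q, 0 were past it in either direction on Day 14. The part of C1q in the differences of these 3 lists was not tested.

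The monocyte list stood on the low side when all gated cells were compared. Of 8 counted genes 4 were at least 1.5-fold lower on Day 7 and 6 on Day 14, with medians of -0.62 and -1.22, and 0 were past 1.5-fold higher. *Ccr2*, the chemokine receptor of inflammatory monocytes, was 381 and 535 CPM on Day 7 (-0.49, -0.59 to -0.39) and 332 and 512 CPM on Day 14 (-0.63, -0.74 to -0.52). With at least 0.3% C1q the list median was -0.27 on Day 7 and -0.15 on Day 14, with 3 of 8 lower and 1 higher on Day 7, and 1 lower and 2 higher on Day 14. The 2 higher ones were *Ly6c2*, at 4.16 (2.25 to 7.24) on 63 UMIs against 2, and *Ms4a4c*, at 1.14. Resident-like and alternative activation genes had medians of 0.0089 and -0.041, with 1 of 11 past 1.5-fold higher and 2 lower on Day 7 and 0 and 1 on Day 14. In the restricted cells these medians were -0.13 and -0.55, with 1 higher and 2 lower on Day 7 and 0 and 4 on Day 14. The gate removed the cells richest in *Lyve1*, *Cd163* and *Cbr2*, which limits this list.

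Among the remaining lists, interferon response genes mostly lay above the reference, 7 of 8 on each day, although 1 was past 1.5-fold higher on Day 7 and 0 on Day 14. Of 9 growth factors 8 lay above it on Day 7 and 6 on Day 14, with 2 and 3 past 1.5-fold higher and 0 lower. *Hbegf*, a ligand of the EGF receptor, had 1.12 on Day 7 and -0.079 on Day 14, and *Vegfa*, an angiogenic factor, 0.29 and 0.79. Of 10 genes of the integrated stress response 9 lay above it on Day 7 and 5 on Day 14, and 1, *Gdf15*, was past 1.5-fold on each day, while *Atf3* had 0.10 and -0.14 and *Ddit3* 0.18 and -0.45. Of 19 immediate early and heat shock genes 0 were past it on Day 7 and 4 were lower on Day 14, among them *Jun* at -0.65 and *Hspa1a* at -0.61. Of 3 counted cell cycle genes 0 were past it on Day 7 and 1 was lower on Day 14, and cells with a *Mki67* UMI after thinning were 2.25% (1.26 to 3.68) against 1.87% (1.42 to 2.41) on Day 7 and 3.13% (2.03 to 4.58) against 3.46% (2.33 to 4.93) on Day 14. For cells with at least 0.3% C1q the Day 14 medians were 0.024 for interferon response, -0.026 for growth factors, -0.13 for integrated stress and -0.34 for immediate early and heat shock genes, of which 5 were past 1.5-fold lower.

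Markers of other cell types were summed over each list in the chosen cells against the reference. The 8 natural killer cell genes summed to 1.19 against 9.37 CPM on Day 7 and 3.59 against 3.18 CPM on Day 14, with no UMI of 7 of them in the chosen cells on Day 7 and of 3 on Day 14. The 8 B and plasma cell genes summed to 92.2 against 83.6 CPM on Day 7 and 154 against 135 CPM on Day 14, with 4 and 5 of them at 0. Most of this was *Ighm*, an immunoglobulin heavy chain gene, at 81.1 and 139 CPM in the chosen cells, and a UMI of the list was seen in 25.4% and 44.7% of them against 17.6% and 33.2% of the reference. The 10 T cell genes summed to 20.6 against 23.2 CPM on Day 7 and 55.6 against 69.3 CPM on Day 14, and the 8 neutrophil genes to 201 against 202 CPM on Day 7 and 60.3 against 62.3 CPM on Day 14. Sums of dendritic cell genes were higher in the chosen cells for some lists and days and lower for others. The 8 genes of type 2 dendritic cells summed to 349.5 against 288 CPM on Day 7 and 702 against 914 CPM on Day 14, and the 8 of type 1, among them *Cadm1*, to 472 against 419.9 CPM on Day 7 and 469.8 against 454 CPM on Day 14. The 8 of mature dendritic cells summed to 41.2 against 44.5 CPM on Day 7 and 24.3 against 26.4 CPM on Day 14. The 8 fibroblast genes gave the highest sums, 2671 against 3047 CPM on Day 7 and 3218 against 3498 CPM on Day 14, lower in the chosen cells on both days. Keratinocyte genes summed to 8.31 against 22.1 CPM on Day 7 and 281 against 217 CPM on Day 14. Small sums came from endothelial genes, 36 against 21.1 CPM on Day 7 and 14.1 against 15.6 CPM on Day 14, and pericyte genes, 7.12 against 9.59 CPM on Day 7 and 66.6 against 58.5 CPM on Day 14. Mast cell genes summed to 4.75 against 4.02 CPM on Day 7 and 4.70 against 4.77 CPM on Day 14 and Schwann cell genes to 41.6 against 45.6 CPM on Day 7 and 39.3 against 63.6 CPM on Day 14. The part of these transcripts in the gene differences was not tested.

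The rule joined macrophages of different make-up. On Day 7, 330 of the 668 cells had at least 2 *Slamf7* UMIs and no *Il10* (*Slamf7*-led), 147 had at least 2 *Il10* UMIs and no *Slamf7* (*Il10*-led) and 191 had both. On Day 14 these were 504, 87 and 208. Both genes were seen in 191 gated cells on Day 7, where the product of the separate shares gives 138.6, and in 208 on Day 14, where it gives 196.5. Their ratio to the product was 1.38 and 1.06, and 1.39 and 1.01 among cells of 2000 to under 4000 UMIs. The genes were thus seen together more often than the product on Day 7 and near it on Day 14. The simulated-doublet score marked 33.5% of the cells with both genes on Day 7 and 6.73% on Day 14. It marked 29.1% and 7.94% of *Slamf7*-led cells, and 17.01% and 5.75% of *Il10*-led cells. The part of doublets in the joint detection and in the differences between the kinds was not tested. The *Slamf7*-led cells were deeper, with medians of 3816 and 4221 UMIs against 2625 and 3148 in *Il10*-led cells, and a depth-weighted *Il10*-led set was used beside the plain one. The split was chosen after seeing the data.

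MHC class II genes differed between the kinds on both days. Of 2712 genes with a mean of at least 50 CPM over them, 83 (3.06%) were at least 2-fold higher and 99 (3.65%) at least 2-fold lower in *Slamf7*-led cells on Day 7, and 72 (2.65%) and 99 (3.65%) on Day 14. On both days and with both *Il10*-led sets, 13 (0.479%) were 2-fold higher and 22 (0.811%) lower. Of 9 counted antigen presentation genes 5 were among the 13 and 0 among the 22. *H2-Ab1*, a class II chain, was 2751 against 633 CPM on Day 7 (log2 ratio 2.12, 1.94 to 2.31) and 7357 against 3046 CPM on Day 14 (1.27, 1.18 to 1.37). It was seen in 73.0% of *Slamf7*-led and 34.7% of *Il10*-led cells on Day 7. *Cd74*, the class II invariant chain, was 5184 against 1232 CPM on Day 7 (log2 ratio 2.07, 1.94 to 2.21) and 15775 against 6736 CPM on Day 14 (1.23, 1.16 to 1.29). Resident-like macrophages held 1090.2 and 5941 CPM of *Cd74*, near the *Il10*-led values, and the reference 2922 and 11171 CPM. *H2-Aa*, *H2-Eb1* and *H2-DMb1* had log2 ratios between 1.78 and 2.30 on Day 7 and between 1.16 and 1.62 on Day 14.

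Further genes were higher in *Slamf7*-led cells. *Mmp12*, macrophage elastase, was 496 against 36.4 CPM on Day 7 (log2 ratio 3.77, 3.04 to 4.61). On Day 14 it was 443 CPM in *Slamf7*-led cells, 1062 UMIs, and 0 UMIs in *Il10*-led cells, at least 46.2-fold higher against a floor of 3 counts in the 87 cells. Its UMIs were concentrated, with 71.8% in 10 cells on Day 7 and 60.8% on Day 14. *Slamf9*, another SLAM family receptor, was 66.5 against 9.70 CPM on Day 7 (log2 ratio 2.78, 1.37 to 4.68) and 111 against 32.0 CPM on Day 14 (1.79, 0.89 to 2.87). The tetraspanin *Cd9* had 1.41 (0.86 to 2.02) on Day 7 and 1.85 (1.13 to 2.67) on Day 14. The adhesion receptor gene *Alcam* had 1.29 (0.61 to 2.04) and 1.78 (0.78 to 3.01), and *Sema4d*, a semaphorin, 1.81 (1.11 to 2.59) and 1.11 (0.20 to 2.20). *Plbd1* and the proteasome gene *Psmb6* were between 1.25 and 1.55 on both days.

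Other genes were higher in *Il10*-led cells. *Ednrb*, an endothelin receptor, was 62.9 against 344 CPM on Day 7 (log2 ratio -2.45, -2.86 to -2.06) and 20.5 against 169.7 CPM on Day 14 (-3.05, -3.64 to -2.46). It was seen in 49.7% of *Il10*-led and 11.2% of *Slamf7*-led cells on Day 7. *F13a1*, coagulation factor XIII, was 397 against 1184 CPM on Day 7 (log2 ratio -1.58, -1.75 to -1.40) and 399 against 1153 CPM on Day 14 (-1.53, -1.71 to -1.35). *Klf2*, a transcription factor of quiescent cells, was 203 against 655 CPM on Day 7 (log2 ratio -1.69, -1.94 to -1.45) and 234 against 948 CPM on Day 14 (-2.02, -2.22 to -1.81). Resident-like macrophages held 616 and 331 CPM of *Ednrb* and 1956 and 1755 CPM of *F13a1*, above the *Il10*-led cells. The rule capped *Lyve1*, *Cd163* and *Cbr2* at 2 UMIs, and 52.4% of *Il10*-led cells on Day 7 and 47.1% on Day 14 had at least 1, against 22.4% and 24.8% of *Slamf7*-led cells. The part of resident-like cells under the cap in these differences was not tested.

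Further genes higher in *Il10*-led cells included *Ccl24*, an eosinophil chemokine, which was 21.9 against 209 CPM on Day 7 (log2 ratio -3.25, -3.90 to -2.63) and 79.8 against 263 CPM on Day 14 (-1.72, -2.10 to -1.33). In *Il10*-led cells its UMIs lay in few cells, on Day 7 79.1% in the top 10 of 147, and on Day 14 82.9% in the top 10 of 87. *Thbd*, thrombomodulin, had -2.09 (-2.61 to -1.57) and -1.63 (-2.19 to -1.05), and *Igfbp4*, a binding protein of insulin-like growth factors, -1.51 (-1.85 to -1.16) and -1.47 (-1.76 to -1.18). *S1pr1*, a sphingosine phosphate receptor, had -1.19 (-1.84 to -0.52) and -1.87 (-2.51 to -1.20). *Ltc4s*, leukotriene C4 synthase, had -1.62 (-2.46 to -0.77) and -1.22 (-1.81 to -0.59), and the focal adhesion gene *Tns1* -1.33 (-1.85 to -0.81) and -1.31 (-1.80 to -0.80). The stress and early response genes *Ier2*, *Phlda1* and *Hsph1* had -1.26, -2.05 and -1.34 on Day 7 and -1.43, -1.16 and -2.44 on Day 14. *C1qa* did not separate the kinds, with 2577 and 2821 CPM on Day 7 and 3715 and 3962 CPM on Day 14. Among cells with at least 0.3% C1q, the log2 ratios were 2.09 and 1.29 for *H2-Ab1* and -2.39 and -2.92 for *Ednrb*, close to those in all cells. Other genes moved more. On Day 7 *Mmp12* went from 3.77 to 2.54 in these cells, and to 5.12 with the depth-weighted *Il10*-led set. With that set *Slamf9* went from 2.78 to 1.90 on Day 7.

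The lists contain some of the genes just named, among them 5 of the 9 counted antigen presentation genes, so their medians partly restate this division. *Il10*-led cells had the higher median for the 12 counted inflammatory cytokine and NF-κB feedback genes, with log2 ratios of -1.07 on Day 7 and -0.57 on Day 14, beside -0.046 and -0.0095 over all counted genes. For 9 CC chemokines the medians were -0.93 and -0.51, and for 6 CXC chemokines -0.91 and -0.66. For 11 resident-like and alternative activation genes they were -0.99 and -1.08, and for 19 immediate early and heat shock genes -0.64 and -0.57. The antigen presentation medians of 1.78 and 1.16 were on the other side. On Day 7 *Ccl2* stood at 166 CPM in *Slamf7*-led and 917 CPM in *Il10*-led cells, against 227 CPM in the reference. *Slamf7*-led cells thus did not lie above the reference for *Ccl2* or *Ccl7* on Day 7. For *Ccl3* on Day 7 they were close to it, at 261 against 239 CPM. They lay above it for *Ccl4* on Day 7, at 623 against 512 CPM, and for *Ccl2* on Day 14, at 543 against 442 CPM.

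**Figure D5:**
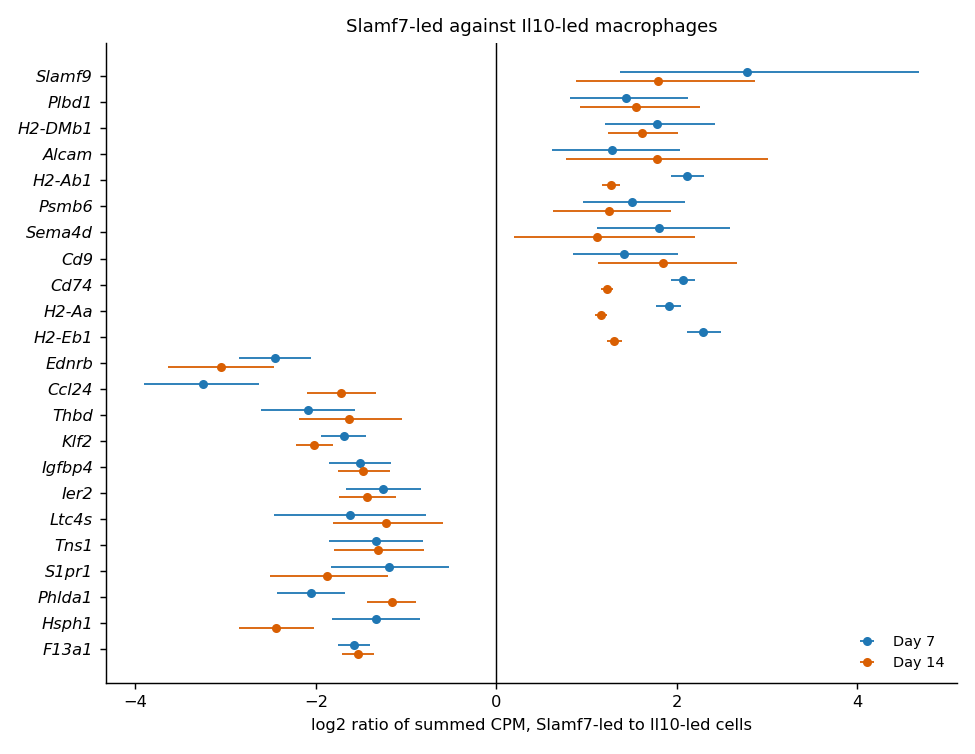
Log2 ratio of summed CPM (x axis) between *Slamf7*-led and *Il10*-led macrophages for the genes with the largest ratios shared by both days (y axis), with 95% counting intervals for Day 7 and Day 14. *Mmp12*, with 0 UMIs in the Day 14 *Il10*-led cells, is not drawn. The genes were chosen to have the same sign on both days, so the plot shows the size of each ratio.

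Between the Day 14 and Day 7 libraries, 85 of 5114 genes were at least 2-fold higher (1.66%) and 128 at least 2-fold lower (2.5%) in the *Slamf7*/*Il10* macrophages, around a median log2 ratio of -0.086. Among these counted genes the 5 with the lowest ratio were as follows. *Saa3*, serum amyloid A3, went from 62.1 to 1.38 CPM (log2 ratio -5.49, -7.13 to -4.24), and *Spp1*, osteopontin, from 1674 to 131 CPM (log2 ratio -3.67, -3.81 to -3.54). *Slpi*, an inhibitor of neutrophil proteases, went from 29.7 to 4.98 CPM (log2 ratio -2.58, -3.41 to -1.82), the receptor gene *Cd300lf* from 33.2 to 4.98 CPM (log2 ratio -2.74, -3.56 to -1.99), and the condensin gene *Ncapg2* from 45.9 to 9.12 CPM (log2 ratio -2.33, -2.94 to -1.76). The reference moved the same way for each, by -3.22, -3.66, -1.37, -1.95 and -2.33. *H2-Eb1*, an MHC class II gene, went the other way, from 2204 to 8648 CPM (log2 ratio 1.97, 1.93 to 2.01), and by 2.01 in the reference. The direction of these changes was therefore shared by gated macrophages at large. *Saa3*, *Slpi* and *Cd300lf* fell further in the chosen cells than in the reference. The part of free RNA in these changes was not tested.

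The 5 genes with the highest ratio to Day 7 were keratinocyte genes, *Krt1*, *Krt77*, *Krtdap*, *Krt10* and *Lgals7*. *Krt1* had 0 UMIs on Day 7 and 291 on Day 14, at least 67.8-fold higher against a floor of 3 counts. *Krt10* went from 2.37 to 77.7 CPM (log2 ratio 5.03, 3.89 to 6.49). The same transcripts were in the reference, where *Krt1* was 47.4 CPM and *Krt10* 56.6 CPM on Day 14, and in fibroblasts, with 48.6 and 87.7 CPM. In the chosen cells *Krt1* was 80.5 CPM.

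The Day 3 library, which the rule did not use, offered a further set of cells. The same gate kept 420 macrophages there, of which 87 (20.7%) had at least 2 *Slamf7* plus *Il10* UMIs and 256 had 0. Of the 14 genes named as higher on Days 7 and 14, 12 were also above the reference on Day 3, and of the 10 named as lower, 2 were, against 50.6% of 5106 counted genes. *Mfge8* and *Slc25a33* were the exceptions among the 14, with log2 ratios of -1.58 and -1.14. *Nlrp3* had 0.65 (0.34 to 0.96) and *Gdf15* 0.31 (-0.17 to 0.78). Some of the 12 rest on little: *Cadm1* was seen in 1 of the 87 cells, and *Rcan1* and *Ralgds* had 0.045 and 0.12. Among the 10 named as lower, *Ear2* and *Retnla* had no finite Day 3 ratio for lack of UMIs and were counted as not above. *Tuba1a*, counted as above, had 0.00069. Between 36 *Slamf7*-led and 28 *Il10*-led cells, 11 of the 12 genes higher in *Slamf7*-led cells were higher on Day 3, *Mmp12* being the other with 0 UMIs in *Slamf7*-led and 11 in *Il10*-led cells, and 0 of the 12 genes higher in *Il10*-led cells, against 56.0% of 2707 counted genes. *H2-Ab1* stood at 1734 and 639 CPM and *Ednrb* at 46.0 and 259 CPM. With 1 library a day these are values of 3 libraries, without a test over animals.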

How the data were processed

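Single-cell libraries of wounds on Day 3, Day 7 and Day 14 were used, 1 per day. Per the labels and the submitters' processing notes, the authors made the deposited counts with Cell Ranger 6.0.0 on mm10, as whole UMI counts per gene and barcode, 32285 genes in each file, and barcodes held at least 500 UMIs. Day 3 served only to set values beside those of the main libraries.

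The gate and the rule were applied to each barcode. UMIs were summed over cells and given as CPM with exact Poisson intervals, ratios with conditional binomial intervals and shares with exact binomial (Clopper-Pearson) intervals, at 95%. Genes needed a mean of 20 CPM over the chosen and reference cells of both libraries, and the 19 genes of the rule were left out. No test was run, since each day had 1 library. The reference was also weighted to the depth of the chosen cells in 10 bins, and shares were also computed after thinning each cell to 1000 UMIs.

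Members and lists were chosen with earlier results of these data known. Named genes were the 14 highest and 10 lowest by the ratio nearest 0 of 4 (both days, plain and depth-weighted reference) with 1 sign, the 5 highest and 5 lowest between days, and members of the gene lists. The 12 highest and 12 lowest genes of the split by *Slamf7* and *Il10*, ranked the same way, were chosen after seeing the data, as were the size of 1.5-fold and the limit of 0.3% C1q. Doublets were kept in the main values. A nearest-neighbour score against simulated doublets (50 neighbours) marked 0.8% per 1000 barcodes of a library, and values without marked barcodes are given. Gene positions came from the GENCODE annotation of GRCm38. Python 3.11.15, numpy 2.4.6, scipy 1.17.1, pandas 2.3.3, scikit-learn 1.9.0 and matplotlib 3.10.9 were used.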

Additional observations from a re-analysis of the deposited data

Results flagged for a closer look

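For 6 genes of the lists the log2 ratio of the *Slamf7*/*Il10* macrophages to the reference had opposite signs in the Day 7 and Day 14 libraries, each with a counting interval that left out 0. These differences between days were not tested, since each day had 1 library. *Lpl*, lipoprotein lipase, had 0.81 on Day 7 and -0.68 on Day 14. *Slamf9*, a SLAM family receptor, had 0.82 on Day 7 and -0.33 on Day 14, and *Tnip3*, an inhibitor of NF-κB signaling, 0.96 on Day 7 and -0.54 on Day 14. *Ccl24*, an eosinophil chemokine, had 0.63 on Day 7 and -0.34 on Day 14. The transcription factor gene *Bhlhe40* had 0.33 on Day 7 and -0.42 on Day 14, and *Slc7a11*, the cystine transporter, 0.33 on Day 7 and -0.37 on Day 14. With at least 0.3% C1q the Day 14 values were -0.09 for *Lpl*, 0.19 for *Slamf9*, 0.23 for *Tnip3*, -1.22 for *Ccl24*, 0.021 for *Bhlhe40* and 0.27 for *Slc7a11*, so that 4 of the 6 no longer had opposite signs. The Day 7 value of *Slc7a11* was -0.26 in cells with at least 3 *Slamf7* plus *Il10* UMIs, and that of *Ccl24* on Day 14 was 0.048 with the depth-weighted reference without marked doublets, each ending the opposition.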

How the results depend on the processing

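The share of *Slamf7*/*Il10* macrophages, 14.6% on Day 7 and 37.5% on Day 14, was 33.5% and 60.7% with at least 1 UMI, 7.65% and 24.7% with at least 3, 16.6% and 41.0% in cells of at least 2000 UMIs, 16.0% and 42.7% with at least 0.3% C1q, and 16.3% and 30.8% for any UMI after thinning. Without marked doublets the Day 7 share was 12.8%. The number of genes at least 2-fold from the reference moved more. With at least 1 UMI, 6 genes were higher on Day 7, and 10 were higher and 22 lower on Day 14. With at least 3 UMIs, 39 and 32 were higher. With the depth-weighted reference 34 were higher on Day 14, with at most 5% mitochondrial UMIs 28, and with the mean of each cell's CPM 11. Without marked doublets 38 were higher and 20 lower on Day 7, and with the depth-weighted reference as well 46 were higher and 20 lower on Day 7 and 31 higher on Day 14. With at least 0.3% C1q, 10 were higher and 17 lower on Day 14. With a mean of at least 50 CPM the counts were 11 higher and 4 lower on Day 7, 10 and 10 on Day 14, and 41 and 46 between days, and with at least 5 CPM 47 and 102, 91 and 176, and 249 and 418. Other filters tested fewer or more genes, and for the other settings the cause was not tested. Of the values of single genes under these settings, 3955 moved by less than their interval, 741 moved further, and 5, counted apart, were at least 2-fold and changed sign, on Day 14 with at least 0.3% C1q: *Glipr2* to 0.18, *Pilra* to 0.38, *Plac8* to 0.34, *Wnt11* to 0.28 and *Ly6c2*, a gene of inflammatory monocytes, to 4.16 (2.25 to 7.24), on 63 UMIs against 2. Of 363 such values 108 had the opposite sign in at least 1 setting, 56 of them with at least 0.3% C1q, but of the 117 of at least 1.5-fold 7 did, the 5 above, *Ly6c2* on Day 7 and *Top2a* on Day 14.

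No paired analysis was possible because each day had 1 library. Genes near 20 CPM rest on few UMIs, at 2526329 UMIs in the chosen cells on Day 7 and 3616733 on Day 14. Shares of marked doublets and of cells with little C1q differed between the groups as given above, and the part of free RNA was not tested. The settings with at least 0.3% C1q and with the depth-weighted reference without doublets were added after seeing the data.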
